A study of Mus musculus with 2 samples.

Results

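Plasmacytoid dendritic cells (pDCs) of liver metastases were taken as all cells that carried the authors' cell type label pDCs, from both libraries together. They numbered 100 of 44371 cells, 46 of 21511 from shZdhhc17 metastases and 54 of 22860 from shSCR metastases. The metastases grew from 4T1 cells, which derive from a triple-negative mammary tumour of the mouse, injected into the spleen of female BALB/c mice aged 6 to 8 weeks. In the shZdhhc17 group the injected 4T1 cells carried a lentiviral short hairpin RNA that silences Zdhhc17, the gene of a palmitoyltransferase, and in the shSCR group a non-targeting scrambled hairpin. Both lines were selected with puromycin, the spleen was removed from all mice shortly after injection, and metastases were dissected on day 14 and dissociated with liberase. The hairpins were in the injected cancer cells, so the pDCs described here are cells of host mice, in both groups mice without a spleen. Equal numbers of cells from 3 dissociations were pooled per group and captured on a BD Rhapsody cartridge, a microwell system that tags the RNA of each cell. Each group is therefore 1 library, no test between groups can be made, and no interval below covers the spread between mice. Intervals of shares and ratios cover counting error only.

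pDCs are rare dendritic cells that develop in the bone marrow and circulate in blood. They sense nucleic acids of viruses and of dying cells through the endosomal receptors TLR7 and TLR9 and can then release large amounts of type I interferon. The transcription factor encoded by Tcf4 maintains their identity, and in mice they are recognised by Siglec-H, a surface lectin encoded by Siglech. Conventional dendritic cells (cDCs), their closest relatives by name, instead specialise in presenting antigen to T cells.

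The shZdhhc17 library held 172527305 UMIs (unique molecular identifiers, which count captured RNA molecules) and the shSCR library 214842365, with medians of 6732 and 7105 UMIs per cell. All cells had at least 500 UMIs. The annotation distinguished 17 types and set aside 21 labels of doublets and 3 of unknown cells. The libraries shared 609 cell numbers, of which 15.8% carried the same label in both, against 18.7% given by the makeup of the libraries. Among them were 2 pDC numbers, each shared with a neutrophil of the other library. The label pDCs was named by the authors from marker expression. Levels of single genes per cell, Siglech and Zdhhc17 included, were not analysed here, so the label could not be checked against its markers.

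pDCs were a rare cell type in both groups. In shZdhhc17 metastases 0.214% of cells were pDCs (exact 95% binomial interval 0.157 to 0.285), and in shSCR metastases 0.236% were (0.178 to 0.308). The ratio of the shares was 0.905, with a counting interval of 0.611 to 1.34. The intervals of the libraries overlapped, and a difference smaller than these bounds was not detectable with 46 and 54 cells. The spread between mice is unknown. By number of cells pDCs ranked 14 of the 17 types, after basophils (113 cells) and before natural killer (NK) cells (82 cells). Basophils outnumbered pDCs in shZdhhc17 (60 against 46) but not in shSCR (53 against 54), while NK cells were fewer in both (37 and 45). The interval of pDCs overlapped those of both types in each library, and the rank of pDCs beside them is not resolved. For each pDC there were 94.1 neutrophils and 34.9 monocytes in the shZdhhc17 library, against 122 neutrophils and 41.1 monocytes in the shSCR library.

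**Figure D1:**
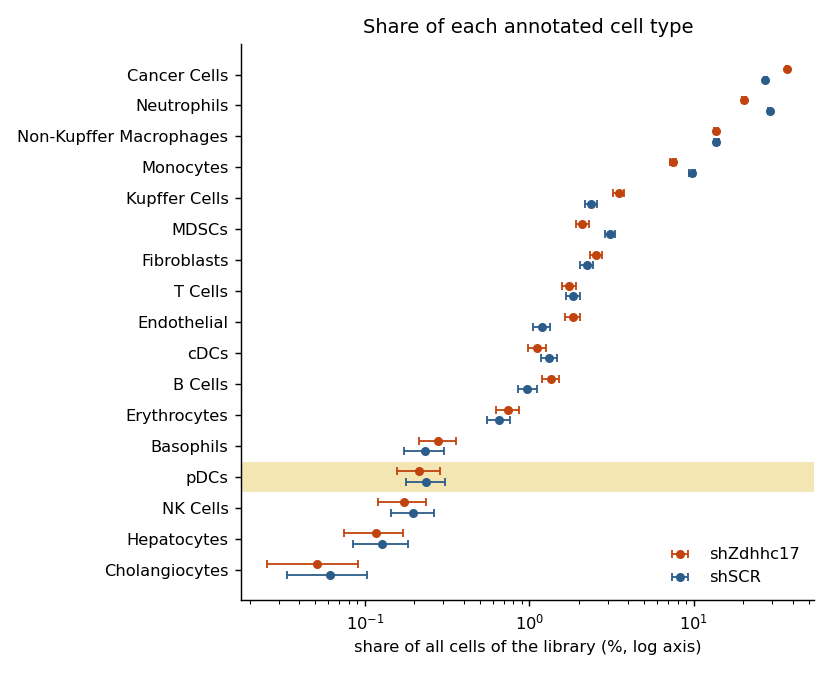
Share of each of the 17 annotated types among all cells of a library (horizontal log axis, in percent), shZdhhc17 above shSCR. Points are shares and bars exact 95% binomial intervals. The shaded row marks pDCs, at 0.214% and 0.236%, with overlapping bars.

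Because the share of cancer cells was 36.9% in shZdhhc17 and 27.2% in shSCR, the share of pDCs was also taken over other sets of cells. Among cells other than cancer cells, pDCs were at 0.339% in shZdhhc17 (0.248 to 0.451) and 0.324% in shSCR (0.244 to 0.423), a ratio of 1.04. Among the 11 immune types they were at 0.414% (0.303 to 0.552) and 0.378% (0.284 to 0.493), a ratio of 1.09 with an interval of 0.739 to 1.62. The ratio thus lay just below or just above equality according to the set of cells it was taken over, and its interval included equality each time.

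Set against cDCs, pDCs formed the smaller part of the dendritic cells. There were 46 pDCs and 239 cDCs in the shZdhhc17 library, or 16.1% pDCs among both types (12.1 to 20.9), and 54 pDCs and 301 cDCs in the shSCR library, or 15.2% (11.6 to 19.4). Over both libraries there were 0.185 pDCs per cDC. The number of pDCs per cDC in shZdhhc17 was 1.07 times that in shSCR, with an interval of 0.699 to 1.65. The authors placed cDCs in a class of monocyte-derived cells, together with monocytes and macrophages, and gave pDCs a class of their own.

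The pDCs came from 1 fine cluster. All 100 were members of the same cluster of the authors' initial clustering, which held no cell of another label, and none was moved by the later re-clustering. The cDCs were spread over 2 initial clusters (298 and 242 cells) and 43 clusters after re-clustering. Of the 138 initial clusters, 67 held cells of 1 label only and 14 were smaller than the pDC cluster. Cells of the shZdhhc17 library made up 46.0% of the pDC cluster and 48.5% of all cells. Over the initial clusters this share ran from 1.14% to 82.2%, with quartiles of 39.6% and 57.7%, so the pDC cluster lay in the middle of that range. The labels were read from the same clustering, so these counts describe the annotation and are no test of it.

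On the authors' UMAP, a map that places cells with similar expression near each other, pDCs formed a compact island. All of the 15 nearest cells of every pDC were pDCs, and no cell of another label had a pDC among its 15 nearest. The smallest gap between a pDC and a cell of another label was 6.83 times the largest distance between any pair of pDCs. For all 100 pDCs the nearest cell of another label was a monocyte, whereas by median position the nearest type was cDCs, followed by monocytes, NK cells and T cells. Of the 5 nearest pDCs of a pDC, 55.2% came from the same library for shZdhhc17 cells and 64.1% for shSCR cells, where the makeup of the other pDCs gives 45.5% and 53.5%. The pDCs of the libraries were thus intermixed, with neighbours from their own library somewhat more often than their makeup gives. The map was built from the same genes that gave the labels, and distances on it have no unit, so they are given only as a description.

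**Figure D2:**
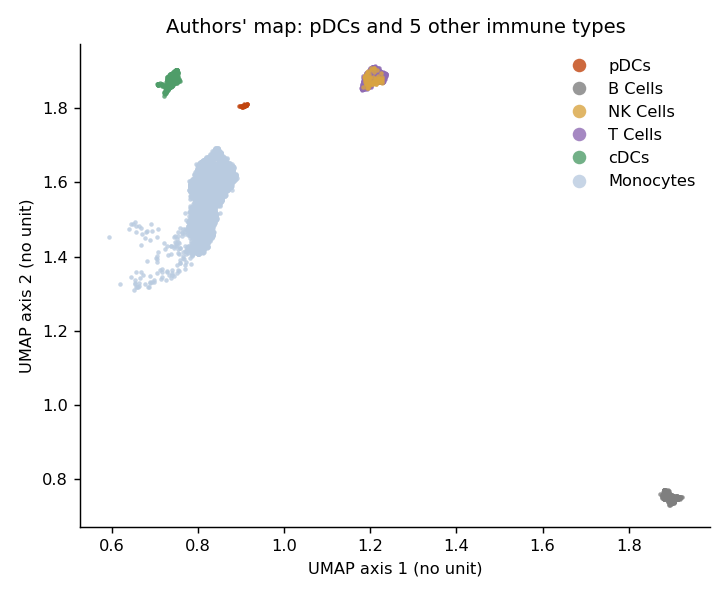
Positions of pDCs, cDCs, monocytes, T cells, NK cells and B cells on the authors' UMAP (both axes without unit, both libraries together). Each point is 1 cell. The 100 pDCs form a small separate group between the cDCs and the T and NK cells, above the monocytes.

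pDCs had fewer UMIs per cell than cDCs and more than lymphocytes. In the shZdhhc17 library pDCs had between 789 and 5501 UMIs with a median of 2764.5, against cDCs with 690 to 22280 and a median of 4761. In the shSCR library pDCs had between 1177 and 7596 UMIs with a median of 3238.5, against cDCs with 615 to 35996 and a median of 5700. The pDC median was 0.581 times the cDC median in shZdhhc17 and 0.568 times in shSCR. In shZdhhc17 3 of 46 pDCs lay above the cDC median, and in shSCR 4 of 54. The ranges of single cells overlapped, but the pDCs were concentrated in the lower part of the cDC range in both libraries. The median B cell had 839.5 UMIs in shZdhhc17 and 944.5 in shSCR, the median T cell 1130 and 2051.5, and the median NK cell 1193 and 1554. In shZdhhc17 45 of 46 pDCs lay above the B cell median, and in shSCR all 54 did.

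**Figure D3:**
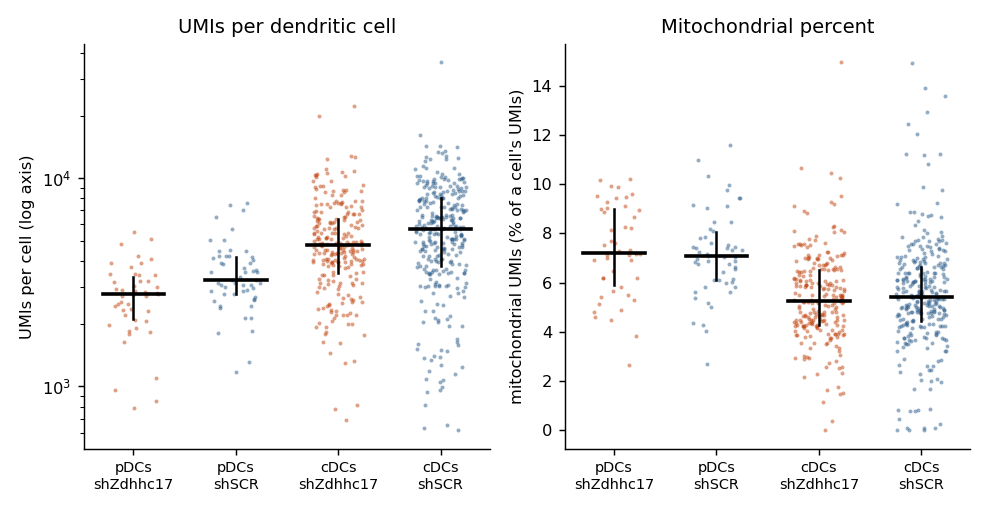
UMIs per cell (left, log axis) and mitochondrial UMIs as a percent of a cell's UMIs (right) in pDCs and cDCs of both libraries. Each point is 1 cell, the thick line is the median and the vertical line joins the quartiles. pDCs have lower UMI medians (2764.5 and 3238.5) than cDCs (4761 and 5700) and higher mitochondrial medians (7.22% and 7.06%) than cDCs (5.27% and 5.43%).

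pDCs were shallower in shZdhhc17, as were all 17 types. The ratio of the median UMIs of shZdhhc17 over shSCR was 0.854 in pDCs, 0.835 in cDCs, 0.738 in monocytes and 0.551 in T cells, the lowest of the 17 types. Of the 17 types, only cholangiocytes and B cells had a ratio nearer to equality, while over all cells of the libraries, whose makeup differs, it was 0.948. For detected genes the pDC ratio was 0.891 and ranked 8 of 17, below cDCs at 0.909. Genes and mitochondrial percent were also described at matched UMIs within each library, and shares after filters by UMIs, as given below. The part of depth in the other values was not tested.

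pDCs were a uniform cell type by relative spread of depth. The coefficient of variation of UMIs (SD over mean) was 0.372 in shZdhhc17 pDCs and 0.384 in shSCR pDCs, the lowest of the 17 types in both libraries, against 0.532 and 0.572 in cDCs. The coefficient was also the lowest of the 17 types for detected genes, with 0.286 and 0.276, and for mitochondrial percent, with 0.257 and 0.243. For mitochondrial percent, where the pDC median is high, this did not hold for the absolute spread. The distance between quartiles was 3.07 percentage points in shZdhhc17 pDCs and 1.95 in shSCR pDCs, against 2.24 and 2.2 in cDCs. Other types pool several fine clusters while pDCs are 1 cluster. Of the single initial clusters with at least 10 cells of a library, 16 of 137 had a lower coefficient for UMIs than the pDC cluster in shZdhhc17, and 12 of 135 in shSCR. The pDC cluster was thus among the more uniform fine clusters without being the most uniform. No pDC reached the 23652.5 UMIs that mark the top 5% of all cells.

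pDCs showed more genes than cDCs of the same depth. The median pDC had 1517.5 detected genes in shZdhhc17 and 1703 in shSCR, against 1930 and 2123 in cDCs, but detected genes increase with UMIs. Each pDC was therefore set against the cDCs of its library with UMIs within 10% of its own. In shZdhhc17 the upper quartile of pDC UMIs (3371) lay below the lower quartile of cDCs (3519). In shSCR the pDC median (3238.5) lay below the cDC lower quartile (3803). The partners were thus largely cDCs of low depth for their type, and the fewest per pDC were 2 in shZdhhc17 and 3 in shSCR. At matched UMIs, all 44 shZdhhc17 pDCs that had such partners showed more genes than the median of their partners, by a median of 181.5 genes (quartiles 121 and 251). In shSCR 50 of 54 did, by a median of 184 genes (quartiles 89.6 and 267). The sign and the size were thus alike in the separate libraries. Cells of a library are not replicates, so this was described in each library and not tested.

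**Figure D4:**
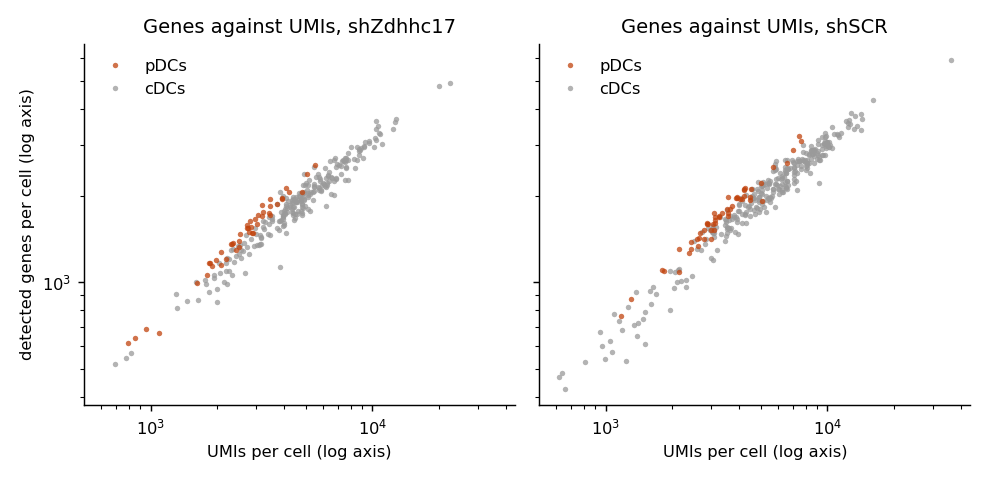
Detected genes against UMIs per cell (both log axes) for pDCs and cDCs in shZdhhc17 (left) and shSCR (right). Each point is 1 cell. At a given number of UMIs most pDCs lie on the upper edge of the cDCs, by a median of 181.5 and 184 genes at matched UMIs.

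The same was seen by median against the other types that were matched in this way. At matched UMIs pDCs had a median of 171 more genes than monocytes in shZdhhc17 and 211 more in shSCR, and were higher in 45 of 46 and 52 of 54 cases. Against non-Kupffer macrophages the difference was 128 and 191 genes, and against T cells 247.5 and 214, with as few as 1 T cell per pDC in shZdhhc17. Of the matched types, endothelial cells, which line vessels, were nearest to pDCs, with differences of 58.5 genes in shZdhhc17 and 26.2 in shSCR. The quartiles in shSCR (-39.2 and 76.4) included 0. Against cancer cells the difference was 75 and 133.5 genes. Among cells with 2000 to 3000 UMIs, 19 pDCs of shZdhhc17 had a median of 1471 genes and 16 pDCs of shSCR a median of 1417.5. This was the second highest in shZdhhc17 and the highest in shSCR of the 13 types with at least 10 such cells in each library. With 3000 to 4000 UMIs pDCs were the second and the third highest of 10 types. In shZdhhc17 the type above pDCs in both ranges was cells labelled MDSCs (myeloid-derived suppressor cells), with 1486 and 1826 genes. In shSCR endothelial cells (1744) and MDSCs (1743) were above pDCs (1737) with 3000 to 4000 UMIs. With 4000 to 6000 UMIs there were only 5 and 12 pDCs, with 2116 and 2039.5 genes. These lay above cDCs (1940 and 1976) but below MDSCs (2267 and 2264), endothelial cells (2117 and 2218) and Kupffer cells (2129 and 2103).

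**Figure D5:**
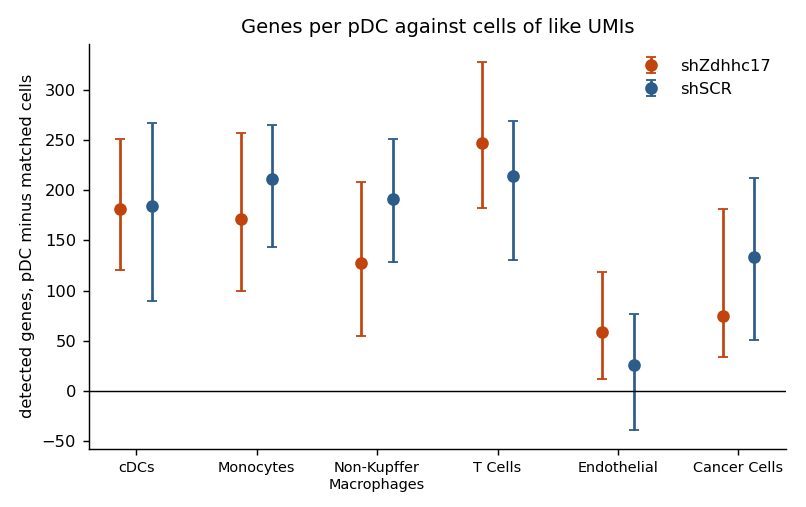
Difference in detected genes between each pDC and the median of cells of another type with UMIs within 10% of its own, in the same library, for 6 types. Points are medians over pDCs and bars join the quartiles, with shZdhhc17 left of shSCR and the line marking equality. Medians lie above equality for each of the 6 types, least so for endothelial cells (58.5 and 26.2).

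Mitochondrial transcripts made up a larger part of the RNA of pDCs than of cDCs. The percent of mitochondrial UMIs ran from 2.66 to 10.2 in shZdhhc17 pDCs with a median of 7.22, and from 2.69 to 11.6 in shSCR pDCs with a median of 7.06. In cDCs the medians were 5.27 and 5.43. Above the cDC median lay 39 of 46 pDCs in shZdhhc17 and 47 of 54 in shSCR, although the ranges overlapped. At matched UMIs the median difference between pDCs and cDCs was 2.12 percentage points in shZdhhc17 (35 of 44 pDCs higher) and 1.73 in shSCR (45 of 54 higher). Without matching of UMIs, pDCs ranked 4 of 17 types in both libraries, below endothelial cells, cancer cells and cholangiocytes. Against cancer cells of like depth, however, pDCs were higher by median (1.26 and 0.8 percentage points), with quartiles on either side of 0. Among cells with 2000 to 3000 UMIs pDCs (8.2% and 7.44%) ranked 3 of 13 types in both libraries. B cells (10.6% and 9.48%) and endothelial cells (8.26% and 9.81%) were above them. Against T cells of like depth pDCs differed little, by 0.0719 and 0.435 percentage points with quartiles on either side of 0, and against endothelial cells they were lower by median (-0.753 and -1.41). No pDC was without mitochondrial UMIs, while 1 cDC of shZdhhc17 and 3 cDCs of shSCR were.

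Genes that mark pDCs were looked up among the 1000 highly variable genes on which the authors built the map of all cells. Of 27 pDC identity genes 8 carried this flag, or 29.6%, where 3.51% of all 28523 listed genes did. The flag was given over all cells, so it shows that a gene varied among the cells of the metastases and not in which type it was high. Siglech (ENSMUSG00000051504.18, protein-coding, GRCm38 chromosome 7, 55768178 to 55778925, plus strand), the marker of the type, was flagged. Ccr9 (chromosome 9, 123678439 to 123784330), a receptor for the chemokine CCL25, and Atp1b1 (chromosome 1, 164437109 to 164458355), a subunit of the sodium-potassium pump, were flagged too. So were the transcription factor genes Spib (chromosome 7, 44525993 to 44532071), Bcl11a (chromosome 11, 24078056 to 24174123) and Zeb2 (chromosome 2, 44983632 to 45117395). The remaining flagged members were Plac8 (chromosome 5, 100553725 to 100572245), a small cysteine-rich protein gene of many myeloid cells, and Mzb1, which encodes a chaperone of the endoplasmic reticulum in secretory B lineage cells and pDCs. Spib, Bcl11a and Mzb1 are also genes of B cells, of which there were 512. The flag alone assigns none of the 8 genes to pDCs.

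The other 19 pDC identity genes were not among the variable genes. They included Tcf4, the regulator of pDC identity, Irf8 and Runx2, further transcription factor genes of the lineage, and Bst2, an interferon-induced surface protein gene used to sort pDCs, which were singled out after the flags were seen. Among neutrophils alone, where 4.64% of 21544 listed genes were flagged as variable, 3 of 25 listed pDC identity genes carried the flag, Plac8, Zeb2 and Runx2. Siglech was listed among neutrophil genes but not flagged there. Plac8 and Zeb2 were variable in both sets. The other 6 genes flagged over all cells, Siglech, Ccr9, Atp1b1, Mzb1, Spib and Bcl11a, were not flagged among neutrophils. The share of all genes that were flagged in both sets was not counted, so this overlap is no result about the members. None of the pDC identity genes was named in the 180 rows of neutrophil cluster markers that the authors deposited. Beside 21544 listed genes these rows are few, so the absence of 25 genes from them is no result about the members.

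The list of nucleic acid sensing and interferon signalling held 20 genes, of which 17 were looked at for this flag. None of the 17 was variable over all cells, where 3.51% of all listed genes were, so this count is near the share over all genes and is no result about the members. The 17 included Tlr7 and Tlr9 (the sensors of single-stranded RNA and of CpG DNA), Irf7 (the factor that switches on interferon alpha genes) and Ifnb1 (interferon beta), singled out after the flags were seen. Among neutrophils, Tlr7 carried the flag. The other 3 list members, Ifna1, Ifna2 and Ifna4, which encode interferon alpha, were not analysed here. Of 15 cDC genes 6 were flagged over all cells (40%, against 3.51% of all listed genes), namely Xcr1 and Clec9a of the cross-presenting subset, Ccr7 and Ccl22 of migrating cDCs, the integrin gene Itgae and the transcription factor gene Irf4. Of 7 B and plasma cell genes 6 were flagged (85.7%, against the same 3.51%).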

How the data were processed

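Cells were grouped by the library named for each cell in the deposited cell table, and members were taken by the authors' label. Per the file headers, reads went through the BD Rhapsody pipeline, after which the authors corrected for ambient RNA, clustered and re-clustered the cells and named types from marker expression, with gene symbols of the mm10 (GRCm38) build. The submitters' processing notes name Seurat 4.1.0, with versions of other tools not given in the sources used here. Whole-number counts per cell (total UMIs and detected genes) and the percent of mitochondrial UMIs were deposited by the authors, both after ambient correction. UMAP coordinates are a score without unit, as deposited. The deposited log2 fold changes of neutrophil markers were used for their gene names only. Gene flags are TRUE or FALSE per gene.

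Shares have exact (Clopper-Pearson) 95% binomial intervals and ratios log-normal counting intervals. Both cover counting error only. Intervals of medians are 95% intervals from the ranked values of single cells, which are not replicates. Matching set each pDC against cells of another type and the same library within 10% of its UMIs, since cells could not be thinned to 1 depth without gene counts. Ranks at like depth used types with at least 10 cells in each library. No doublet caller was run. Named genes were Siglech and each pDC list member that was flagged variable or not analysed, except 1 list member that is not reported here, and the lists held 69 genes, all with an entry in GENCODE M21 (GRCm38), the source of gene coordinates. The members and lists were chosen with earlier results of these data known. Alternatives tried were 3 denominators, 5 filters of cells by depth or mitochondrial percent, other numbers of neighbours and widths of the UMI window. Python 3.11.15, pandas 2.3.3, scipy 1.17.1 and scikit-learn 1.9.0 were used.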

Additional observations from a re-analysis of the deposited data

How the results depend on the processing

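No paired analysis was possible because each group is 1 library. The ratio of the pDC shares (0.905) ran from 0.811 (UMIs at or above the lower quartile) to 1.09 (immune types only) over 8 alternatives, each within the counting interval of the value given. The pDC to cDC ratio (0.185) ran from 0.173 to 0.186 over 5 filters, and shZdhhc17 over shSCR (1.07) from 0.896 to 1.07. This ratio between libraries lay below equality with a minimum of 1000 UMIs, which removed 3 pDCs of shZdhhc17 and none of shSCR (0.992, and 0.989 after scaling of shSCR UMIs), and without cells under the lower quartile of UMIs (0.896). Medians of UMIs, genes and mitochondrial percent stayed within their 95% intervals over single cells under 3 filters. These filters removed few or no pDCs, so the outcome was largely fixed in advance. The minimum of 1000 UMIs removed 3 in shZdhhc17 and 0 in shSCR, and the mitochondrial limit 2 and 3. Leaving out the top 5% of cells by UMIs removed 0 in either library. The neighbours of pDCs remained 100% pDCs with 5 or 50 of them, an outcome that the gap around the pDC island fixed in advance. With the neutrophil gene table in place of the full one, 3 pDC identity genes in place of 8 were flagged, since that flag was set among neutrophils alone. Matching on UMIs was chosen after the data were seen. With windows of 5% and 20%, pDCs exceeded cDCs by 168 to 181 genes in shZdhhc17 and 169.5 to 182 in shSCR. The interval of the share ratio, 0.611 to 1.34, is what 46 and 54 cells allow.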
